A study of Homo sapiens with 6 samples.

Results

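The hypoxia-inducible factor (HIF) pathway is described here through 10 genes chosen by symbol: the HIF subunits HIF1A, ARNT and EPAS1, the prolyl hydroxylases EGLN1 and EGLN3, and the target genes VEGFA, CA9, ADM, NDRG1 and ANGPTL4. All 10 were among the 20260 complete gene rows of the deposited table. All 10 also passed the filter on low counts, which left 13325 genes for testing. They were measured in MDA-MB-231, an established breast cancer line of mesenchymal, triple-negative type. The ABI2 group was 3 libraries from cells given an ABI2 expression plasmid. ABI2 is an adaptor of the WAVE complex, which drives actin branching. The control group was 3 libraries from cells given the vector without insert. Both groups were transfected, and the series set out to learn what ABI2 does in these cells. The plasmid's promoter, the time from transfection to harvest and the oxygen level are stated in none of the sources used here. The labels do not call the replicates separate cultures, and each p-value therefore reflects the scatter of these 6 samples alone, some of which may be technical. In bulk RNA, fewer cells expressing a gene and less of its RNA per cell cannot be told apart.

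HIF is a transcription factor made of an oxygen-labile alpha subunit, encoded by HIF1A (HIF-1alpha) or EPAS1 (HIF-2alpha), and a stable beta subunit, encoded by ARNT. When oxygen is present, EGLN enzymes hydroxylate prolines of the alpha subunits, the VHL ubiquitin ligase binds them, and the proteasome destroys them. When oxygen is scarce the alpha subunits persist, pair with ARNT, and switch on genes for glycolysis, blood vessel growth, pH control and matrix remodelling. This control acts on protein, so the mRNA of an alpha subunit is not a measure of HIF activity. No protein was measured in these libraries.

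HIF binds DNA through a short core, ACGTG or GCGTG. The stretch before the transcription start is therefore shown for the target genes with a window that were higher in ABI2 libraries. It is also shown for EGLN3, the prolyl hydroxylase gene of this set that was higher in ABI2 libraries. The sequences are the 250 bases before the RefSeq start (GRCh38.p14), written 5′ to 3′ on the strand of the gene. Capitals mark a core found on either strand, so CACGT is ACGTG read on the other strand. The windows are ANGPTL4 at chr19:8363905-8364154 on the plus strand, CA9 at chr9:35673678-35673927 on the plus strand, ADM at chr11:10304823-10305072 on the plus strand and EGLN3 at chr14:33951075-33951324 on the minus strand.
ANGPTL4: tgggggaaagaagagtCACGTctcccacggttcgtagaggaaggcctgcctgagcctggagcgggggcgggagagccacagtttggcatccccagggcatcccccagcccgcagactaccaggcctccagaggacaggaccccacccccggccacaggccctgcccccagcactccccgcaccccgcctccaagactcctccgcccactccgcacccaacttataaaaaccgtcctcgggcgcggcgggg
CA9: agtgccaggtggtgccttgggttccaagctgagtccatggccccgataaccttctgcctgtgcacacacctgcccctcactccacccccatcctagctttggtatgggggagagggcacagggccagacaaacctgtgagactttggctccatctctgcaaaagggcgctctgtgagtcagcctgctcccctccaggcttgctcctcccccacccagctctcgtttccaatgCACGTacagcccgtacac
ADM: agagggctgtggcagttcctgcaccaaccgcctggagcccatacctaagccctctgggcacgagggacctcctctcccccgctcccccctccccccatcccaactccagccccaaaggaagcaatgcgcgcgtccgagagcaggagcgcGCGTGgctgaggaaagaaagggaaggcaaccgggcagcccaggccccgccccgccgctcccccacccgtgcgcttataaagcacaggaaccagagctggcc
EGLN3: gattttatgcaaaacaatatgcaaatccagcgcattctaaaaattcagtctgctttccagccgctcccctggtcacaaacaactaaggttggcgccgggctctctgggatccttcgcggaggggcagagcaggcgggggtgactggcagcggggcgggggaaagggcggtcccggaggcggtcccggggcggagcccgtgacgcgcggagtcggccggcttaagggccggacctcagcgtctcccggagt

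The core lay 234 bases before the start in ANGPTL4, 18 bases in CA9 and 101 bases in ADM, and no core was found in this window of EGLN3. A window was at hand for 8 of the 10 genes, and 6 of those 8 held a core, HIF1A, EPAS1 and EGLN1 as well as the target genes shown. The window of EGLN1, whose counts were lower in ABI2 libraries, is not printed, and its core lay 13 bases before the start. Another window of HIF1A, of 31.2% GC, held none. The windows of HIF1A, EPAS1 and EGLN1 with a core had 75.6%, 80.8% and 81.2% GC. The share over all 35116 windows of the same length was 43.21%. It was 57.87% among windows of 60% to 70% GC and 62.11% among those of 70% to 80% GC. No share was computed above 80% GC, where the windows of EPAS1 and EGLN1 lie. These shares are per window, while 6 of 8 is a count of genes. These letters are a description of the sequence and not a bound site. The RefSeq start used for a window can differ from the gene start in the deposited table.

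The libraries held 39.243 to 40.242 counts in units of 1e6 in the ABI2 group and 38.453 to 40.31 in the control group. ABI2 itself had 8603, 8399 and 8535 counts in ABI2 libraries, against 3488, 3304 and 3329 in control libraries, a log2 fold change of 1.43 ± 0.04 (SE; edgeR quasi-likelihood test, Benjamini-Hochberg adjusted p = 1.23e-05). The size depended on the unit. In TPM, ABI2 was at 134.4 ± 36.8 in ABI2 libraries and 16.7 ± 1.68 in control libraries (SD, n = 3 each), 8.04-fold higher. The base composition of the libraries differed by group. The count-weighted GC content of transcripts was 53.7% to 54.1% in ABI2 libraries and 50.8% to 51.3% in control libraries, and the mitochondrial share of counts was 4.67% to 5.01% against 8.48% to 9.21% (exact permutation p = 0.1 for each, the smallest possible). Fold changes of genes followed transcript GC, with Spearman's rho of 0.79 over 13314 genes, which share the same libraries and are not independent. A GC-corrected fit is therefore given beside the main one. For ABI2 it gave a log2 fold change of 2.78 ± 0.09 (SE; edgeR adjusted p = 3.41e-05). That value rests on the GC of the annotated ABI2 transcript, 41.7% over 22209 bases. Whether this GC suits RNA made from the plasmid was not tested. The part of base composition in any single change was not tested, and the correction takes out true changes too where they track GC. As a check of the line, the 7 mesenchymal markers summed to 3804 to 3939 TPM in ABI2 libraries and 3434 to 3473 TPM in control libraries, with TWIST1 at 0. VIM made up most of that sum (3301 TPM in ABI2 and 2944 TPM in control libraries), while ZEB1 and CAV1 fell, with log2 fold changes of -2.28 and -0.89 (after GC correction -0.67, not passed, and 0.23). The 9 luminal markers summed to 779 to 868 TPM in ABI2 libraries and 454 to 514 TPM in control libraries, with CDH1, PGR and TFF1 at 0, and KRT8 and KRT18 made up most of it. Their part in the results was not tested.

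Among the 10 genes, HIF1A mRNA fell the most and ANGPTL4 mRNA rose the most, and the other log2 fold changes lay between -0.45 and 0.69. In the edgeR test with an adjusted p below 0.05, 6 of the 10 rose (EPAS1, EGLN3, CA9, ADM, NDRG1 and ANGPTL4), 2 fell (HIF1A and EGLN1) and 2 did not pass (ARNT and VEGFA). Of all tested genes, 35.1% rose and 38.0% fell, 73.1% in all. The median log2 fold change was 0.17 over the 10 genes and -0.01 over all tested genes. After GC correction, 3 rose (EGLN1, EGLN3 and ANGPTL4), 3 fell (HIF1A, EPAS1 and NDRG1) and 4 did not pass, against 28.6% and 22.6% of all genes, 51.2% in all, with medians of 0.13 and 0.04. HIF1A, EGLN3 and ANGPTL4 had the same call in both fits. EPAS1, EGLN1 and NDRG1 had opposite calls in the 2 fits.

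**Figure D1:**
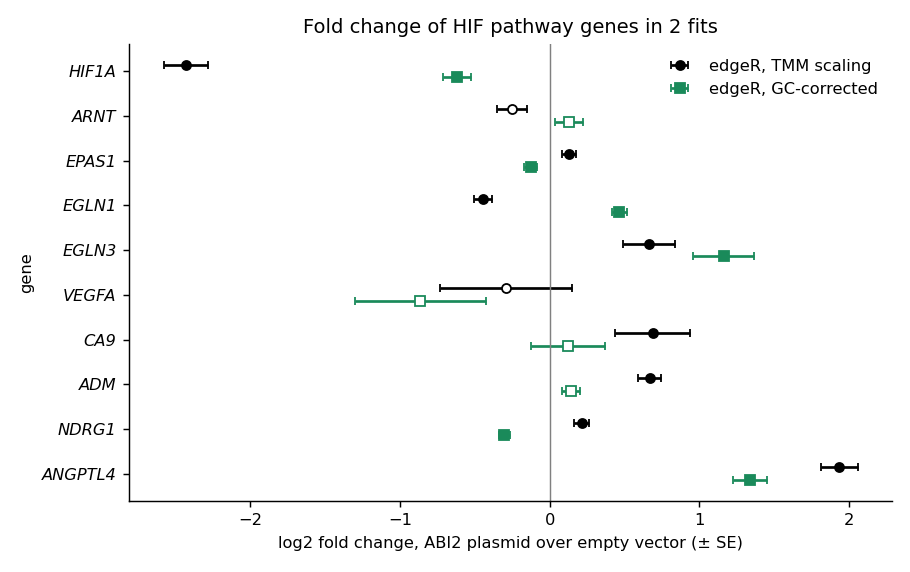
Log2 fold changes of ABI2 over control libraries for the 10 HIF pathway genes (horizontal axis, with standard errors) in the main and the GC-corrected edgeR fit; filled points had an adjusted p below 0.05 and open points did not. HIF1A lies at -2.43 in the main fit and at -0.62 after GC correction, and ANGPTL4 lies at 1.93 and 1.34.

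HIF1A (ENSG00000100644, chromosome 14, 61695540 to 61748259, plus strand, GRCh38) encodes the oxygen-labile subunit of HIF-1. It had 940, 871 and 802 counts in ABI2 libraries, against 5172, 5924 and 3958 in control libraries. Its level was 22.7 ± 1.53 CPM in ABI2 libraries and 122.5 ± 23.2 CPM in control libraries (SD, n = 3 each), where CPM is counts per 1e6 counts of the scaled library. The highest ABI2 library was far below the lowest control library, and the control libraries were themselves spread out. The CPM was 5.39-fold lower in ABI2 libraries, with a log2 fold change of -2.43 ± 0.15 (SE; edgeR adjusted p = 1.9e-05). After GC correction the log2 fold change was -0.62 ± 0.09 (edgeR adjusted p = 0.00153), so the direction and call held and the size was smaller. HIF1A has a transcript GC of 36.4%, which puts it in the lowest of 10 equal classes of genes by GC. In that class 92.6% of genes fell, the median log2 fold change was -1.84, and 24.6% of the genes lay below HIF1A. Its exons share 117 bases with the antisense gene HIF1A-AS1 and 148 bases with AL137129.1 on the same strand, and reads of these cannot be told apart from those of HIF1A where they overlap.

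EPAS1 (ENSG00000116016, chromosome 2, 46296608 to 46386703, plus strand), which encodes the HIF-2alpha subunit, differed little between the groups. It was at 98.4, 100.9 and 96.7 CPM in ABI2 libraries, against 89.3, 90.2 and 91.5 CPM in control libraries. All ABI2 libraries were above all control libraries, by a narrow margin. The log2 fold change was 0.13 ± 0.05 (SE; edgeR adjusted p = 0.0435). The call ended when any control library, or ABI2 replicate 1 or 2, was left out (edgeR adjusted p = 0.0771 to 0.126), with library size only (0.606), with upper-quartile scaling (0.205) and from TPM by limma (0.782), and after GC correction the direction turned (log2 fold change -0.13 ± 0.04, edgeR adjusted p = 0.0456). On the length-scaled level the libraries overlapped, at 31.8, 31.0 and 30.7 TPM in ABI2 libraries and 30.7, 30.3 and 31.0 TPM in control libraries.

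ARNT (ENSG00000143437, chromosome 1, 150809705 to 150876768, minus strand), the shared beta subunit, had 1521, 1509 and 1291 counts in ABI2 libraries, against 1817, 1675 and 1987 in control libraries. The counts did not overlap, but the gap between the groups was no wider than the spread within each. The log2 fold change of -0.25 ± 0.10 did not pass (SE; edgeR adjusted p = 0.0559), and after GC correction it was 0.13 (edgeR adjusted p = 0.297). It passed as lower without control replicate 2 (edgeR adjusted p = 0.0482), with library size only (0.018), with upper-quartile scaling (0.0293) and from TPM by limma (0.0242). With GC and length corrected together it passed as higher (log2 fold change 0.27, edgeR adjusted p = 0.0471), so neither the call nor the direction of ARNT held across settings.

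With HIF1A so much lower and EPAS1 nearly level, the balance of the alpha subunit mRNAs differed between the groups. EPAS1 had 3.22, 3.17 and 3.58 TPM for each TPM of HIF1A in ABI2 libraries, against 0.534, 0.463 and 0.698 in control libraries. By TPM, which is not GC-corrected, EPAS1 was thus the more abundant alpha subunit mRNA in every ABI2 library. HIF1A was the more abundant in every control library. The ratio averaged 3.32 ± 0.225 in ABI2 libraries and 0.565 ± 0.121 in control libraries (SD, n = 3 each), a log2 difference of 2.58 (exact two-sided permutation p = 0.1, the smallest possible with 3 against 3). From GC-corrected CPM the log2 difference was 0.49 (exact permutation p = 0.1). The ratio of HIF1A to ARNT was 0.646, 0.565 and 0.655 in ABI2 libraries, against 2.75, 3.60 and 2.19 in control libraries. That log2 difference was -2.17, or -0.75 from GC-corrected CPM (exact permutation p = 0.1 for both). By TPM, HIF1A mRNA was below ARNT mRNA in each ABI2 library and above it in each control library. Whether either change of order holds after GC correction was not tested.

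The order of levels among the 10 genes, by TPM without GC correction, shifted mainly through HIF1A. By mean TPM, HIF1A ranked 8 of 10 in ABI2 libraries and 3 of 10 in control libraries, at 9.41 ± 0.718 TPM against 55.9 ± 10.6 TPM (SD, n = 3 each). In ABI2 libraries the order was NDRG1, ADM, VEGFA, EPAS1, EGLN1, ARNT, ANGPTL4, HIF1A, EGLN3 and CA9. In control libraries it was NDRG1, VEGFA, HIF1A, ADM, EPAS1, EGLN1, ARNT, ANGPTL4, EGLN3 and CA9. Neighbours that overlapped between libraries were ADM and VEGFA, VEGFA and EPAS1, EGLN1 and ARNT, and ARNT and ANGPTL4 in ABI2 libraries, and VEGFA and HIF1A, HIF1A and ADM, and ANGPTL4 and EGLN3 in control libraries. NDRG1 led in both groups, with means of 457 TPM in ABI2 libraries and 453 TPM in control libraries. CA9 was last in both, at 1.69 ± 0.41 TPM in ABI2 libraries and 1.15 ± 0.173 TPM in control libraries.

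**Figure D2:**
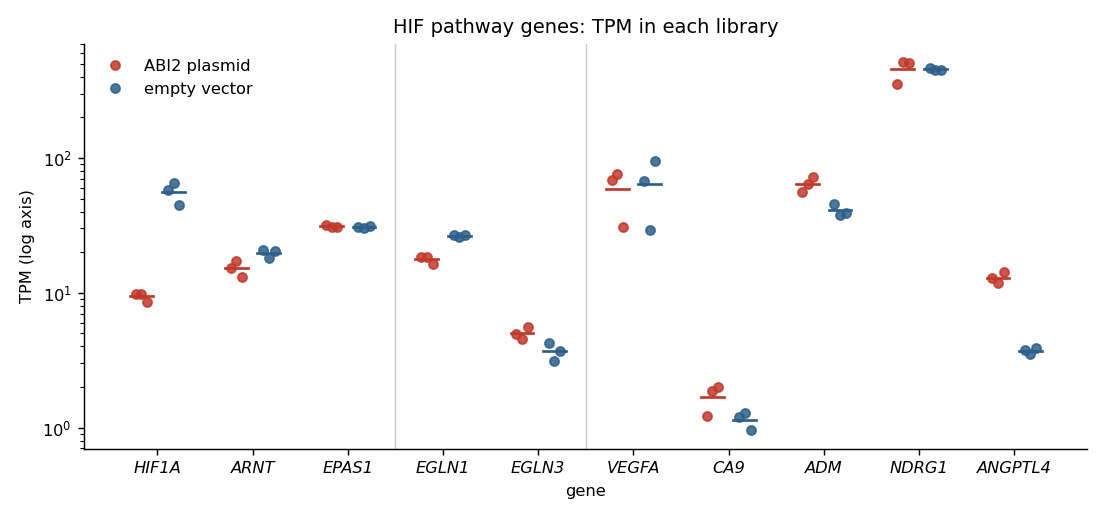
TPM of the 10 HIF pathway genes in each library (log axis), with the ABI2 libraries to the left of the control libraries; points are libraries and bars are group means. HIF1A lies between 8.58 and 9.87 TPM in ABI2 libraries and between 44.5 and 65.6 TPM in control libraries, while EPAS1 lies between 30.7 and 31.8 TPM in ABI2 libraries and between 30.3 and 31.0 TPM in control libraries.

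The prolyl hydroxylase genes moved in opposite directions in the main fit. EGLN1 (ENSG00000135766, chromosome 1, 231363751 to 231425044, minus strand) encodes PHD2, the main oxygen sensor that marks HIF-1alpha. It was at 82.0, 82.4 and 73.3 CPM in ABI2 libraries, against 107.4, 108.4 and 107.9 CPM in control libraries. Every ABI2 library was lower, and the control libraries were nearly equal. EGLN1 thus had a log2 fold change of -0.45 ± 0.06 (SE; edgeR adjusted p = 0.000469). The direction depended on how GC was handled. Correction by the GC of the whole transcript, 44.1%, gave 0.47 ± 0.05 (edgeR adjusted p = 0.000487), while correction by the GC of the coding sequence alone, 60.9%, gave -0.93.

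EGLN3 (ENSG00000129521, chromosome 14, 33924231 to 34222877, minus strand) encodes PHD3, which hydroxylates HIF alpha subunits and is itself induced by HIF. It had 267, 273 and 364 counts in ABI2 libraries, against 239, 178 and 193 in control libraries. All ABI2 libraries were above all control libraries, with ABI2 replicate 3 the highest. The level was 7.87 ± 1.49 CPM in ABI2 libraries and 4.96 ± 0.667 CPM in control libraries (SD, n = 3 each). This gave a log2 fold change of 0.67 ± 0.17 (SE; edgeR adjusted p = 0.0104), and 1.16 ± 0.21 after GC correction (edgeR adjusted p = 0.00315). With the GC of the coding sequence it was 0.36 and did not pass (edgeR adjusted p = 0.0999). In its GC class the median log2 fold change was -0.57, and 98.9% of the genes lay below EGLN3. By the GC of its coding sequence, 56.6%, the class median was 0.43 and 76.5% lay below it. The ratio of EGLN3 to EGLN1 TPM was 0.267, 0.249 and 0.342 in ABI2 libraries, against 0.158, 0.12 and 0.139 in control libraries. Of these 2 genes EGLN1 was the more abundant in all 6 libraries, by less in the ABI2 libraries (log2 difference of the ratio 1.04, exact permutation p = 0.1).

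Of the 5 target genes, ANGPTL4 showed the change that depended least on the processing. ANGPTL4 (ENSG00000167772, chromosome 19, 8363289 to 8374373, plus strand), whose promoter window holds the most distant of the cores shown, encodes a secreted inhibitor of lipoprotein lipase that hypoxia and lipid sensors induce. It had 555, 488 and 602 counts in ABI2 libraries, against 145, 158 and 156 in control libraries. The libraries of each group were close together and the groups far apart. The level was 14.3 ± 1.52 CPM in ABI2 libraries and 3.74 ± 0.257 CPM in control libraries (SD, n = 3 each), 3.82-fold higher. On the log2 scale the change was 1.93 ± 0.12 (SE; edgeR adjusted p = 2.02e-05), and 1.34 ± 0.11 after GC correction (edgeR adjusted p = 0.000158). Its transcript GC of 63.3% falls in the highest GC class, where 73.9% of genes rose and the median was 0.63. Within that class 99.6% of genes lay below ANGPTL4.

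ADM (ENSG00000148926, chromosome 11, 10304680 to 10307397, plus strand) encodes adrenomedullin, a secreted vasodilator peptide. It had 1636, 1644 and 1800 counts in ABI2 libraries, against 1168, 1077 and 1170 in control libraries. Every ABI2 library was higher, and each group was tight. The log2 fold change was 0.67 ± 0.08 (SE; edgeR adjusted p = 0.000215). After GC correction it was 0.14 ± 0.06 and did not pass (edgeR adjusted p = 0.0865). In the GC class of ADM, 932 of 1331 genes rose, and the median was 0.55.

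NDRG1 (ENSG00000104419, chromosome 8, 133237171 to 133302022, minus strand), a stress-responsive cytoplasmic protein gene and a common hypoxia marker, was the most abundant of the 10. It was at 737.2, 798.4 and 812.9 CPM in ABI2 libraries, against 661.2, 671.4 and 694.6 CPM in control libraries. The groups did not overlap in CPM, and the log2 fold change was 0.21 ± 0.05 (SE; edgeR adjusted p = 0.00686). In TPM they did overlap, at 354.0, 512.0 and 506.2 in ABI2 libraries and 466.3, 447.8 and 446.2 in control libraries. ABI2 replicate 1 was then the lowest of all. The log2 fold change after GC correction was -0.30 ± 0.04 (edgeR adjusted p = 0.000746), so the direction of NDRG1 turned with the correction. With library size alone as the scaling it was 0.12 and did not pass (edgeR adjusted p = 0.0839).

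CA9 (ENSG00000107159, chromosome 9, 35673856 to 35681159, plus strand) encodes carbonic anhydrase IX, a membrane enzyme with a part in pH control, and is among the most HIF-dependent genes known. It was barely expressed, with 49, 73 and 77 counts in ABI2 libraries, against 47, 50 and 35 in control libraries. ABI2 replicate 1 lay within the control range in counts. Its log2 fold change was 0.69 ± 0.25 (SE; edgeR adjusted p = 0.0396). Leaving out any library other than ABI2 replicate 1 ended the call (edgeR adjusted p = 0.0544 to 0.119), as did GC correction (log2 fold change 0.12, edgeR adjusted p = 0.707). Library size only, upper-quartile scaling, limma-voom, DESeq2 and TPM also ended it (adjusted p = 0.0508 to 0.0709), and of 18 alternatives 2 kept it. CA9 shares 643 exon bases with ARHGEF39 on the opposite strand, and without a known strand setting their reads cannot be told apart there. ARHGEF39 was at 8.25 ± 1.24 CPM in ABI2 libraries and 6.40 ± 1.24 CPM in control libraries (SD, n = 3 each), a log2 fold change of 0.37 that did not pass (edgeR adjusted p = 0.103).

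VEGFA (ENSG00000112715, chromosome 6, 43770213 to 43786487, plus strand), the main angiogenic growth factor of the HIF response, did not separate the groups. It had 2309, 4515 and 2103 counts in ABI2 libraries, against 4616, 2011 and 5031 in control libraries. Each group held both high and low libraries. In TPM it was at 69.0, 76.6 and 30.9 in ABI2 libraries, against 67.25, 29.4 and 94.7 in control libraries. For VEGFA the log2 fold change was -0.29 ± 0.44 (SE; edgeR adjusted p = 0.577), and -0.86 ± 0.44 after GC correction (edgeR adjusted p = 0.153). Without any one library it was between -0.72 and -0.04. The ratio of count to FPKM keeps 1 value in every library only for a fixed set of transcripts in fixed proportions. For VEGFA this ratio was 0.517, 0.921 and 1.07 in ABI2 libraries, against 1.08, 1.07 and 0.868 in control libraries (each scaled to the library's median). It varied 2.08-fold, and its coefficient of variation of 23.5% was larger than that of 94.4% of genes. Which transcripts of VEGFA were counted in each library, and in what proportions, was not tested. VEGFA shares 188 exon bases with the antisense gene AL136131.3.

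**Figure D3:**
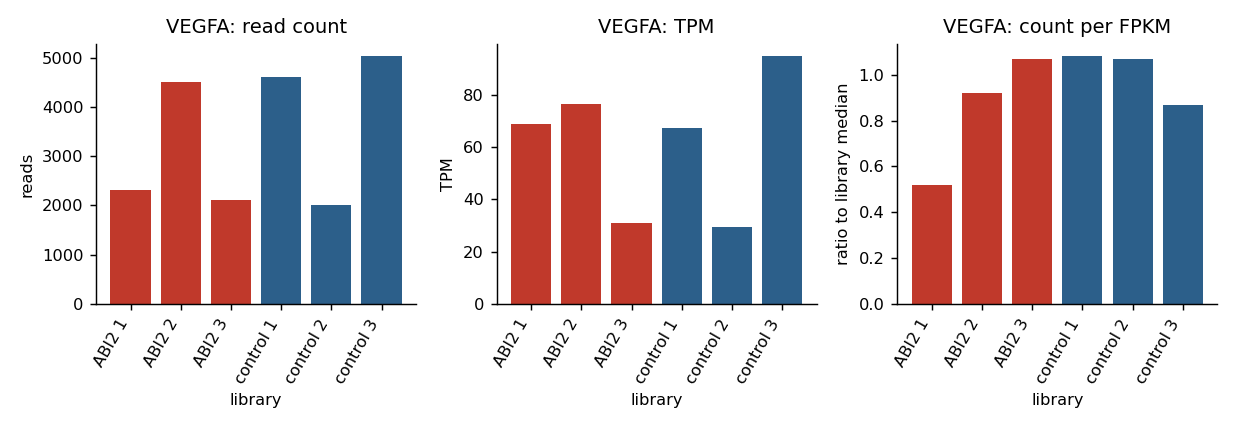
VEGFA in each of the 6 libraries, as count and TPM and as the ratio of count to FPKM scaled to the library median, with ABI2 libraries left of control libraries. Counts run from 2103 to 4515 in ABI2 libraries and from 2011 to 5031 in control libraries, and the ratio is lowest, at 0.517, in ABI2 replicate 1.

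In CPM, 9 of the 10 genes did not overlap between the groups, 6 of them above and 3 below the control libraries, against 77.9% of all tested genes (37.8% above and 40.1% below). VEGFA was the exception. In TPM, 6 of the 10 did not overlap, against 74.2% of all genes. In CPM the share above was larger than over all genes and the share below smaller, and in TPM the share without overlap was smaller. A set of 10 genes does not fix such shares closely. Read against GC, 4 of the 10 genes had a transcript GC below 50%, of which 1 rose and 2 fell in the edgeR test, where 6.77% of all such genes rose and 70.4% fell. The other 6 had 50% GC or more, of which 5 rose and none fell, where 64.2% rose and 4.79% fell. The gene below 50% GC that rose was EGLN3. Over the 10 genes, GC and fold change had a Spearman rho of 0.673, a description of genes that share the same libraries.

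**Figure D4:**
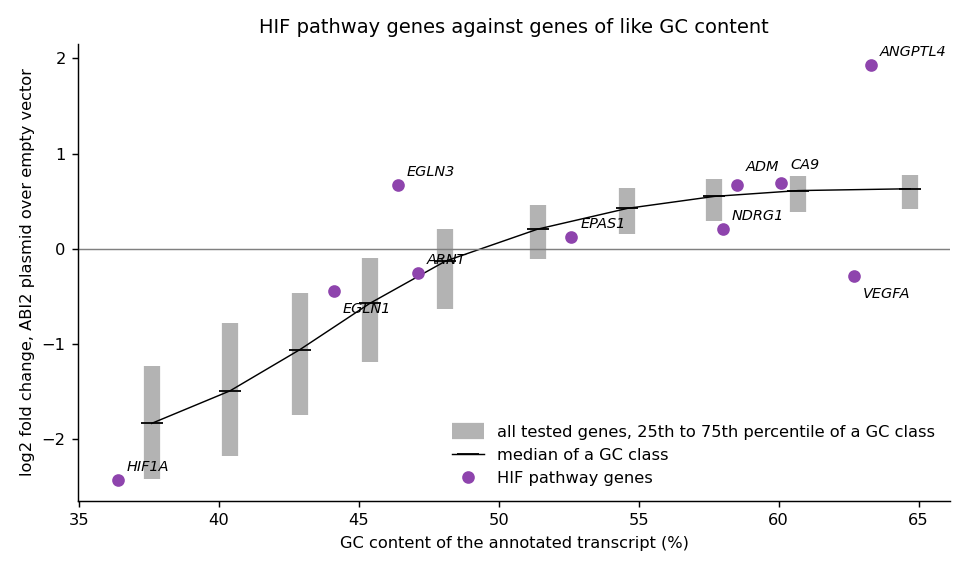
Log2 fold change of ABI2 over control libraries (vertical axis) against transcript GC in percent (horizontal axis) for the 10 HIF pathway genes, over the median and the middle range of 10 equal GC classes of all tested genes. HIF1A, at -2.43, lies under its class median of -1.84, EGLN3, at 0.67, lies over -0.57 (0.43 by coding GC), and ANGPTL4, at 1.93, lies over 0.63.

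Of 15 further genes that regulate HIF, all were in the table and 14 were tested. HIF3A, an alpha subunit relative, had 2 counts in control replicate 1 and none in the other libraries. In the edgeR test 7 rose, 2 fell and 5 did not pass (ARNT2, ELOC, RBX1, EP300 and CREBBP), against 35.1% and 38.0% of all genes. Their median was 0.22 on the log2 scale, against -0.01 over all genes. After GC correction 6 rose and 3 fell, against 28.6% and 22.6% of all genes, with a median of 0.20. With the GC of the coding sequence 3 rose, 1 fell and 10 did not pass, against 30.9% and 23.5% of all genes. The median was then 0.0135, so neither the counts nor the median held across GC values. Among the negative regulators, HIF1AN, which encodes the asparagine hydroxylase FIH, was at 126 ± 2.06 CPM in ABI2 libraries and 100.3 ± 2.3 CPM in control libraries. Its log2 fold change was 0.33, and 0.75 after GC correction, and from TPM it did not pass (limma adjusted p = 0.0688). VHL, the substrate receptor of the ligase that takes HIF alpha to the proteasome, was at 62.6 ± 7.21 CPM in ABI2 libraries and 50.6 ± 2.16 CPM in control libraries (log2 fold change 0.31). The call for VHL ended without control replicate 2 (edgeR adjusted p = 0.0615), with library size only (edgeR adjusted p = 0.0854) and from TPM (limma adjusted p = 0.257). CITED2, which competes with HIF for its coactivators, was at 169 ± 14.1 CPM in ABI2 libraries and 116 ± 2.62 CPM in control libraries. Its log2 fold change was 0.55 in both fits.

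CUL2, the scaffold of the VHL ligase, fell as HIF1A did. It had 932, 879 and 776 counts in ABI2 libraries, against 4157, 4596 and 3401 in control libraries. The groups were far apart, and in both genes ABI2 replicate 3 and control replicate 3 were the lowest of their groups. The log2 fold change of CUL2 was -2.14 (edgeR adjusted p = 1.6e-05), and -0.45 after GC correction. With a transcript GC of 38.5%, CUL2 is in the same lowest GC class as HIF1A. In that class 92.6% of genes fell and the median log2 fold change was -1.84, so the shared fall is not particular to the pathway. SIAH1, a ligase for prolyl hydroxylases, was at -0.29 on the log2 scale in the main fit and 1.07 after GC correction, and its relative SIAH2 at 0.49 and 0.02. The third prolyl hydroxylase gene, EGLN2, was at 148 ± 37.6 CPM in ABI2 libraries and 79.1 ± 19.5 CPM in control libraries (log2 fold change 0.90). That call ended without ABI2 replicate 1 or 3 or control replicate 2 (edgeR adjusted p = 0.0555 to 0.0706), and after GC correction (log2 fold change 0.30, edgeR adjusted p = 0.381). ELOB, a ligase adaptor, had log2 fold changes of 0.43 in the main fit and -0.13 after GC correction. P4HTM, a membrane-bound prolyl hydroxylase, had 0.69 and 0.10.

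Most glycolytic HIF targets, which were also mostly genes of high GC, were higher in the ABI2 libraries. Of 14 such genes, all tested, 11 rose, 2 fell and 1 did not pass, against 35.1% and 38.0% of all genes. The median of the 14 was 0.65. The gene that did not pass was LDHA, named after its value was seen, with a log2 fold change of -0.10 that turned to 1.09 after GC correction (edgeR adjusted p = 0.00182). Of the 14 genes, 11 had 50% GC or more, and 10 of those rose, where 64.2% of all such genes rose. After GC correction 12 of the 14 rose and 1 fell, against 28.6% and 22.6% of all genes, with a median of 0.23. With GC and length corrected together 8 rose and 1 fell, against 28.1% and 22.1% of all genes, with a median of 0.20. With longest-transcript GC 11 rose, and with coding GC 11 rose. The number that rose thus depended on the correction used. The glucose transporter SLC2A1 was at 370.0 ± 13.1 CPM in ABI2 libraries and 209.9 ± 6.85 CPM in control libraries, a log2 fold change of 0.82, and 0.43 after GC correction. Log2 fold changes of the enzymes were 0.84 for ALDOA, 0.66 for ENO1 and 0.65 for PFKL. GC correction left 0.27 for ALDOA, 0.13 for ENO1 and 0.05 for PFKL, which no longer passed (edgeR adjusted p = 0.25). The genes that fell were PDK1, a kinase that inhibits pyruvate dehydrogenase, and SLC2A3, another glucose transporter. PDK1 was at 26.8 ± 5.35 CPM in ABI2 libraries and 45.5 ± 1.83 CPM in control libraries, with log2 fold changes of -0.77 in the main fit and -0.82 after GC correction. With the GC of the longest transcript or of the coding sequence, 0 of the 14 genes passed as lower. The call of PDK1 as lower thus did not hold in those fits. SLC2A3 had -0.35 in the main fit and 0.25 after GC correction.

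The other HIF targets went both ways. Of 39 listed genes 36 were tested, the rest (EPO, FLT1 and CXCR4) having too few counts. Of these, 14 rose, 17 fell and 5 did not pass, against 35.1% and 38.0% of all genes, and their median was -0.14. After GC correction 19 rose and 9 fell, against 28.6% and 22.6% of all genes, with a median of 0.21. With the GC of the longest transcript 16 rose and 11 fell, against 28.6% and 23.4% of all genes. With the GC of the coding sequence 15 rose and 13 fell, against 30.9% and 23.5%, with a median of 0.0099. The excess of genes that rose thus depended on the GC value used. Of 23 targets below 50% GC, 2 rose and 17 fell, where 6.77% of all such genes rose and 70.4% fell. Of 13 at or above 50% GC, 12 rose and none fell, where 64.2% rose and 4.79% fell. Those that rose included the collagen-modifying enzymes LOXL2, PLOD1 and P4HA2 (log2 fold changes 0.76, 0.71 and 0.66, and 0.24, 0.18 and 0.75 after GC correction). Those that fell included the collagen hydroxylase PLOD2 (-1.98, and -0.23 after GC correction), the oxidase ERO1A (-1.20, but 0.47 after GC correction) and the mitophagy receptor BNIP3L (-1.37, but 0.28 after GC correction). KDM3A, a histone demethylase, was at 15.3 ± 3.61 CPM in ABI2 libraries and 104 ± 6.81 CPM in control libraries, with log2 fold changes of -2.77 in the main fit and -2.20 after GC correction.

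**Figure D5:**
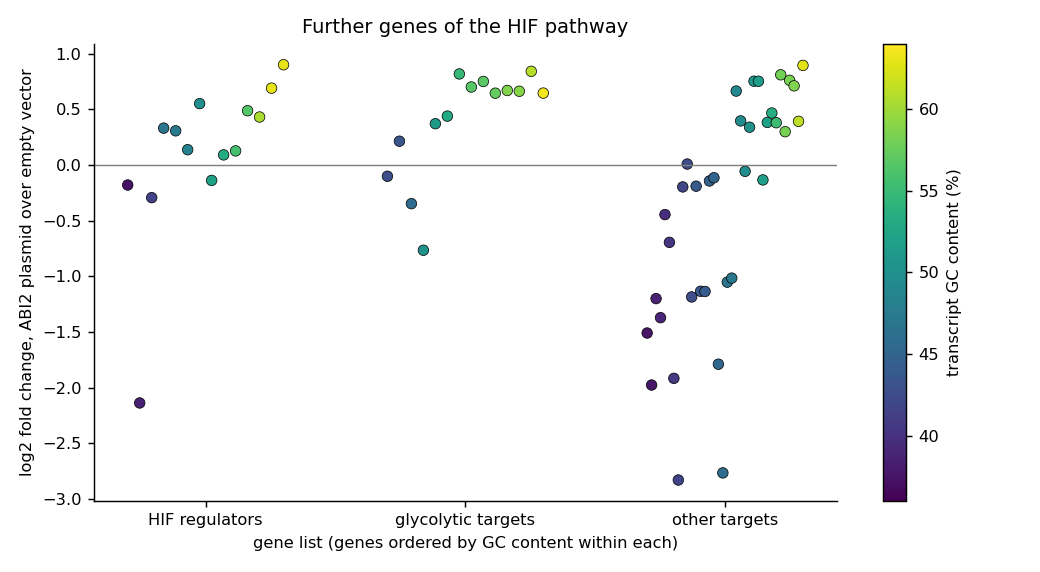
Log2 fold changes of ABI2 over control libraries for the tested genes of 3 further HIF lists (vertical axis); each point is a gene, ordered and coloured by transcript GC within its list. The medians are 0.22 for regulators, 0.65 for glycolytic targets and -0.14 for other targets, and the lowest points of the other targets are mostly genes of low GC.

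The genes whose log2 CPM, centred on each gene's mean, lay closest to HIF1A over the 6 libraries were PDS5A, FAM208A and PHLDB2, at distances of 0.0901, 0.121 and 0.121. PDS5A had a log2 fold change of -2.44. The genes closest to ANGPTL4 were ID1, ISG15 and ISG20, at distances of 0.237, 0.238 and 0.297.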

How the data were processed

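RNA of 6 samples, 3 per group, was made into libraries with an mRNA kit, per the labels' protocols, with groups and replicate numbers taken from the sample titles. Per the file headers, the deposited table holds a read count, a TPM and an FPKM per gene and library. The deposited counts were whole numbers, and the deposited TPM summed to 999952.8 to 999991.9 per library. FPKM was used only in the ratio of count to FPKM. Per the submitters' processing notes, the build was GRCh38 and the tools were HISAT2 2.1.0, StringTie 1.3.3b, Trimmomatic and FastQC 0.11.2. No source used here names the program that counted reads or says whether it used strand. Of 20261 rows, 1 was incomplete and left out.

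The 2 groups were compared by the robust quasi-likelihood F test of edgeR 4.0.16 (R 4.3.3), two-sided, on TMM-scaled counts that passed filterByExpr at a minimum count of 10. A call is a Benjamini-Hochberg adjusted p below 0.05 over all tested genes. The GC-corrected fit, an alternative, used offsets from a natural spline of transcript GC with 5 degrees of freedom, from the GENCODE release 29 transcript with the longest coding sequence. GC values matched 20221 rows. Alternatives were limma 3.58.1 (voom, and log2 of TPM plus 1), DESeq2 1.42.0, other scalings, no filter, a replicate block and each library left out. The edgeR code, with and without GC correction, was run on simulated counts. These had either no GC trend or a straight-line trend, and the same dispersion for every gene. In the real data the trend flattened at high GC, so that run does not show how well the correction works here. For ratios and shares, an exact permutation test over libraries was used, whose smallest p is 0.1. Replicates of a group differed by more than counting noise (chi-square per degree of freedom 20.29 to 46.19), and no library was a copy of another. Counting error weighs most on the genes with few counts, CA9 first, then ANGPTL4 and EGLN3.

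The 10 genes and the further lists were chosen with earlier results of these data known. Named list genes are, for each target list, up to 4 per direction with the smallest p, of which 1 is not reported here. All regulators are named.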

Additional observations from a re-analysis of the deposited data

How the results depend on the processing

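HIF1A kept its call under every alternative tried, with log2 fold changes of -2.57 to -0.61, as did ANGPTL4, with 1.24 to 2.01. Some counts moved by over 1.5 times. The pathway genes that rose numbered 3 with GC correction, with GC of the longest transcript, with the replicate block and GC, with library size only and with TPM, and 1 with GC of the coding sequence, where 4 fell. Glycolytic targets that fell numbered 1, 1 and 1, other targets that fell 9, 9 and 8, and all genes that fell 3015, 2942 and 2745, with GC, with GC and length, and with the replicate block and GC. With longest-transcript GC and with coding GC, glycolytic targets that fell numbered 0 and 0, and all genes that fell 3117 and 3130. Other targets that fell numbered 11 with longest-transcript GC. With coding GC, regulators that rose numbered 3 and those that fell 1. Among the genes that the naming rule takes, directions turned as follows, while other list genes, such as LDHA (1.09 with GC), LOX (-0.45, with GC 1.14) and DDIT4 (0.30, with GC -0.22), were given no full set of alternatives. ARNT reached 0.13, 0.27, 0.0038 and 0.13 with GC, with GC and length, with longest-transcript GC and with the block and GC. EPAS1 reached -0.13, -0.18, -0.21 and -0.13 with GC, longest-transcript GC, coding GC and the block with GC. EGLN1 reached 0.47, 0.70, 0.32 and 0.47, and its distance from its GC class median was -1.005 with coding GC. CA9 reached -0.0089 with GC and length. NDRG1 reached -0.30, -0.22, -0.067, -0.23, -0.30 and, from TPM, -0.0072. ARNT2 reached -0.21, -0.20 and, without TMM, -0.0062. ELOB reached -0.13, -0.28 and -0.13, and ELOC 1.58, 1.32 and 1.58. RBX1 from TPM was -0.0036 and EP300 with GC and length 0.017. CREBBP reached -0.32, -0.33, -0.23 from TPM, and between -0.086 and 0.39 when each library was left out (below 0 without ABI2 replicate 2 or control replicate 3). SIAH1 reached 1.07, 0.90 and 1.07, and SIAH2 -0.045. SLC2A3 reached 0.25, 0.29 and 0.25, ERO1A 0.47, 0.56 and 0.47, and BNIP3L 0.28, 0.22 and 0.28. The cause was not tested. The fits with longest-transcript or coding GC and the ratios of GC-corrected CPM were chosen after seeing the data. The TPM ratios kept their direction under each alternative.

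Leaving out each library in turn, 4 to 5 pathway genes rose and 2 to 3 fell, 5 to 8 regulators rose, 15 to 17 other targets fell, and 4369 to 4562 of all genes rose and 4713 to 5012 fell. The replicate numbers did not pair the samples (correlations of same-numbered deviations 0.0223, 0.0185 and 0.0614). With the replicate block 4 pathway genes rose and 2 fell, with 4548 of all genes higher and 4929 lower. EPAS1 and CA9 were the pathway genes that lost their call under the block (edgeR adjusted p = 0.0799 and 0.0723). The low counts of CA9 limit its precision.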
